A study of Mus musculus with 2 samples.

Results

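The Fos and Jun genes encode the subunits of the transcription factor AP-1. The 7 genes Fos, Fosb, Fosl1, Fosl2, Jun, Junb and Jund were taken by their symbols, with no measured value used in the choice, from the 55536 mouse genes of the tables. They carry 21 of the 141864 annotated mouse transcripts. The tissue, labelled as layer of hippocampus, came from adult female mice of the strain 5xFAD/CAST aged 8 to 10 months, and total RNA was sequenced from 2 biological replicates. 5xFAD animals carry human transgenes with familial Alzheimer mutations under the neuronal Thy1 promoter, and CAST is a wild-derived inbred strain. Both replicates carry the same donor record, so the labels do not settle whether they are separate animals, and every SD measures only the spread between these samples. Animals without the transgenes, or after a stimulus, were not analysed here, so the data give levels and the spread between the libraries.

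AP-1 binds DNA as a dimer of leucine zipper proteins. Jun proteins pair with each other or with Fos proteins, whereas Fos proteins need a Jun or another partner to bind. In neurons Fos, Fosb and Junb are textbook immediate early genes, transcribed within minutes of synaptic activity through SRF and CREB, and their RNAs are short-lived. Fosb also gives, by splicing within its last exon, a truncated and unusually stable protein called delta-FosB, which lacks the C-terminal part of FosB and is known to accumulate in hippocampus after repeated activity or seizures. No stimulus is named in the labels.

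The 4 Fos genes each have an exon 3 of 108 bases, which codes in frame for residues 132 to 167 of Fos, 150 to 185 of Fosb, 100 to 135 of Fosl1 and 119 to 154 of Fosl2. It holds the basic region that contacts DNA. It is shown because 3 of the annotated coding transcripts of Fosb lack it. The sequences are those of the GENCODE M21 transcripts on mm10, 5′ to 3′ on the coding strand, with the bases that are identical in all 4 genes in capitals.
Fos, exon 3, plus strand, chr12:85475592-85475699: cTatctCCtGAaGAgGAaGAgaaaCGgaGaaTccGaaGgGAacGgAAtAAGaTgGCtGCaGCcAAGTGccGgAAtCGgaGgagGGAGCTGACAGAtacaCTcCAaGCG
Fosb, exon 3, minus strand, chr7:19306559-19306666: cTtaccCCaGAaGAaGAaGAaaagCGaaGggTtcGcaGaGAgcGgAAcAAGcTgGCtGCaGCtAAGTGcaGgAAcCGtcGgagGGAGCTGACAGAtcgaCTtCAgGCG
Fosl1, exon 3, plus strand, chr19:5454413-5454520: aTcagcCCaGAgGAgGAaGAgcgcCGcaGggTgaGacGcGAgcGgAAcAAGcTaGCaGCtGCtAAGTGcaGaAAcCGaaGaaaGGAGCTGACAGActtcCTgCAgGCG
Fosl2, exon 3, plus strand, chr5:32150421-32150528: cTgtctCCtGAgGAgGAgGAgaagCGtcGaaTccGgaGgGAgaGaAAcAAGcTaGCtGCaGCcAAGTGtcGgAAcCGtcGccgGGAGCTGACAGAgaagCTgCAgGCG
Of the 108 positions, 62 (57.4%) were identical in all 4 genes. Pairs shared from 66.7% (Fosl1 with Fos and with Fosl2) to 77.8% (Fos with Fosl2) of the bases.

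The splice that makes the delta-FosB reading frame removes 140 bases from exon 4 of Fosb, at chr7:19305007-19305146 on the minus strand. In the first sequence the removed bases are in capitals, with 20 bases on each side. They begin with GT and end with AG, and 237 codons precede them. The second sequence is the junction left in Fosb-206, where the stop codon in capitals begins at the first base after the splice.
Fosb-201, unspliced: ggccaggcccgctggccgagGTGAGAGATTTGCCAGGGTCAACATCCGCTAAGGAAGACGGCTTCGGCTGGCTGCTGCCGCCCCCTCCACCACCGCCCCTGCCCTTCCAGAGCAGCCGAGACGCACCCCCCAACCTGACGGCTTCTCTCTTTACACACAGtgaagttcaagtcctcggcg
Fosb-206, junction: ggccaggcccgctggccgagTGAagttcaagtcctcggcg
Fosb-201 codes for 338 residues and Fosb-206 for 237, the length of delta-FosB. Fosb-207 has the same splice but lacks exon 3 and codes for 201 residues. These sequences define the transcripts whose shares are given below.

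The libraries of replicates 1 and 2 held 27816845 and 32316737 expected counts, and the 7 genes took 9129 and 10463 of them. Expected counts are estimated read numbers per gene, and TPM are reads per length, scaled to the same sum in each library. Where a gene has 0 counts, up to 3 remain possible, which is 0.108 and 0.0933 on the CPM scale of equal library sizes. Reads have no molecular identifiers, so such limits and the Poisson intervals below cover counting error only. Markers of CA1, CA2 and CA3, dentate granule cells and neurons in general all passed a TPM of 1 in each library (3 of 3 genes in each list). Their sums were higher in replicate 2. They were 156.2 and 173.3 TPM for CA1 and 91.9 and 99.8 TPM for CA2 and CA3 in replicates 1 and 2. For dentate granule cells they were 55.1 and 58.8 TPM, and for neurons in general 1291 and 1421 TPM. Markers of choroid plexus, which lies beside the hippocampus, summed to 435.5 TPM in replicate 1 and 149.06 TPM in replicate 2. Those of oligodendrocytes summed to 1274 and 1013 TPM and those of red blood cells to 201.1 and 139.0 TPM, and no lymphocyte marker (0 of 3) reached a TPM of 1 in both. In bulk tissue, fewer cells of a type and less RNA per cell cannot be told apart.

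Of the 7 genes, 6 reached a TPM of 1 or more in each library, where 60.2% of the 22015 nuclear protein-coding genes did so. Jun genes led the order. Jund, the Jun protein made most steadily in resting cells, stood at 83.82 and 83.57 TPM in replicates 1 and 2, a mean of 83.7 ± 0.177 (SD, n = 2), above 95.2% of nuclear protein-coding genes (chromosome 8, 70698949 to 70700616, plus strand). Jun, a target of JNK kinases, stood at 40.97 and 39.06 TPM, a mean of 40.0 ± 1.35 (chromosome 4, 95049034 to 95052222, minus strand). Junb, which often restrains Jun in dimers with it, stood at 31.72 and 32.32 TPM, a mean of 32.0 ± 0.424 (chromosome 8, 84974484 to 84978718, minus strand). Each of these 3 genes rested on over 1000 counts in each library.

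The Fos genes lay lower. Fosl2, which encodes Fra-2, a Fos protein without the strong C-terminal activation domain, was the highest of them at 22.36 and 22.57 TPM, a mean of 22.5 ± 0.148 (chromosome 5, 32135801 to 32157842, plus strand). Fos, the classic marker of recent neuronal activity, stood at 9.97 and 10.8 TPM, a mean of 10.4 ± 0.587 on 329 and 383 counts, above 62.6% of nuclear protein-coding genes (chromosome 12, 85473890 to 85477273, plus strand). Fosb stood at 3.36 and 4.74 TPM, a mean of 4.05 ± 0.976 on 241 and 284 counts (chromosome 7, 19302696 to 19310051, minus strand). Fosl1, which encodes Fra-1, was the only member under a TPM of 1, at 0.18 and 0.10 TPM (chromosome 19, 5447547 to 5455946, plus strand). It held 3 counts in replicate 1 (exact Poisson 95% interval 0.619 to 8.77) and 4 in replicate 2 (1.09 to 10.2), so its level is not distinguishable from the limit that a count of 0 allows.

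The order Jund, Jun, Junb, Fosl2, Fos, Fosb, Fosl1 was the same in both libraries, and no neighbouring pair had overlapping values. Mean TPM fell 2.09-fold from Jund to Jun, 1.25-fold from Jun to Junb, 1.43-fold from Junb to Fosl2, 2.16-fold from Fosl2 to Fos and 2.56-fold from Fos to Fosb. The posterior SD of the gene count, the deposited measure of uncertain read assignment between genes, was 0 for all 7 in both libraries. The other transcript table, in the layout of kallisto, gave means of 78.0 TPM for Jund, 34.7 for Jun, 25.6 for Junb, 21.9 for Fosl2, 10.0 for Fos, 3.69 for Fosb and 0.189 for Fosl1. The order was the same there. The level of Junb was 0.801 of that in the gene table and that of Jun 0.868, where the median over 8397 nuclear protein-coding genes was 0.949 and the central 90% of them ran from 0.805 to 1.25.

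**Figure D1:**
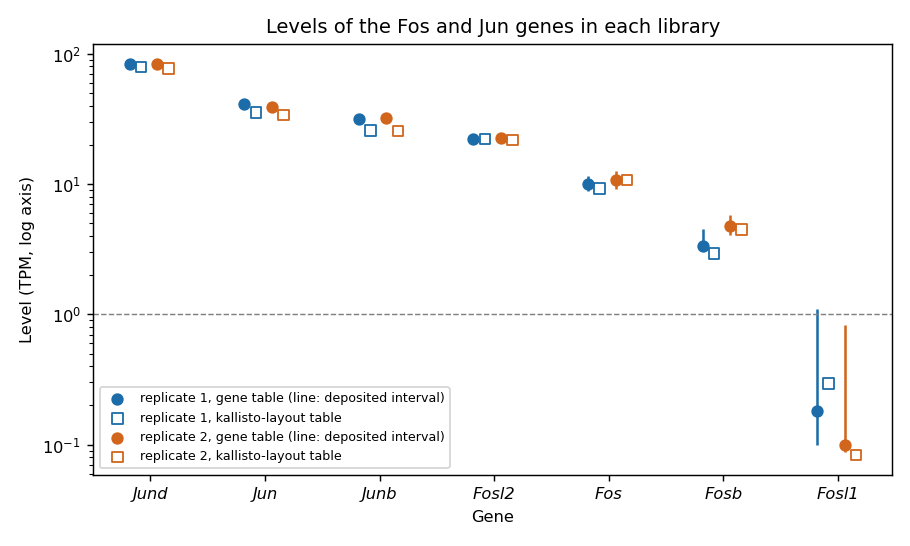
Levels of the 7 genes in TPM on a log axis, per library. Filled points are the gene table with its deposited interval as a line, open squares the kallisto-layout table, and the dashed line marks a TPM of 1. Jund is highest at 83.82 and 83.57 TPM and Fosl1 alone lies under 1.

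The Jun genes outweighed the Fos genes. The 4 Fos genes summed to 37.0 ± 1.65 TPM and the 3 Jun genes to 155.7 ± 1.10 TPM, a ratio of 4.21 ± 0.218 Jun to Fos. The Fos genes thus took 18.6% and 19.8% of the family's TPM, a mean of 19.2% ± 0.803 (n = 2). Jund alone took 43.4% ± 0.216, Jun 20.8% ± 0.760, Junb 16.6% ± 0.173, Fosl2 11.7% ± 0.0437, Fos 5.39% ± 0.289 and Fosb 1.75% and 2.45% in replicates 1 and 2. With the noncoding transcripts of the genes left out, the Fos share was 16.0%, and as a share of expected counts, which are not divided by length, it was 33.5%. These are RNA levels and give no amount of protein or of dimers.

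Several members overlap genes on the opposite strand. The library kit named in the labels is directional, but whether counting used strand is not stated. Its effect on reads in the shared bases was not tested. The posterior SD of the gene count was 0 in both libraries for Jund, Jun, Junb and Fosl1. For the genes that overlap them it was also 0 for Gm11175, Junos and Ccdc85b, and 0.64 and 0.98 for Prdx2 in replicates 1 and 2. Jund shares 877 exonic bases with the antisense gene Gm11175, which held 107 and 96 counts against 2582 and 2937 for Jund. Jun shares 232 bases with the antisense gene Junos, at 39 and 35 counts against 2486 and 2704. Junb shares 173 bases with Prdx2, an abundant peroxiredoxin gene at 2517 and 3301 counts, at its noncoding transcript Junb-202 and not at Junb-201. Fosl1 shares 1163 bases with Ccdc85b, which held 1165 and 1454 counts while Fosl1 held 3 and 4.

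Between the replicates the scaled counts of the members lay close together. After TMM scaling, 0 of the 6 members with a mean count of at least 100 and a mean TPM of at least 1 lay past 2-fold, where 0.268% of 13062 such genes did. The log2 ratio of replicate 2 over replicate 1 was 0.03 for Fos, with a counting interval of -0.19 to 0.24, and 0.04 for Fosb (-0.21 to 0.30). It was 0.07 for Fosl2 (-0.004 to 0.15), -0.07 for Jun (-0.15 to 0.01), 0.03 for Junb (-0.09 to 0.14) and -0.01 for Jund (-0.08 to 0.07). The median size of the log2 ratio was 0.11 over the 3115 genes with 200 to 500 counts, where Fos and Fosb lie, and 0.07 over the 3574 genes with 1000 to 3000 counts, where the other 4 lie. Each of these counting intervals includes 0, and Jund changed sign with spike-in scaling, to 0.05. No direction is therefore given for any of the 6 members. For comparison, the choroid plexus marker Ttr had a log2 ratio of -1.54.

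**Figure D2:**
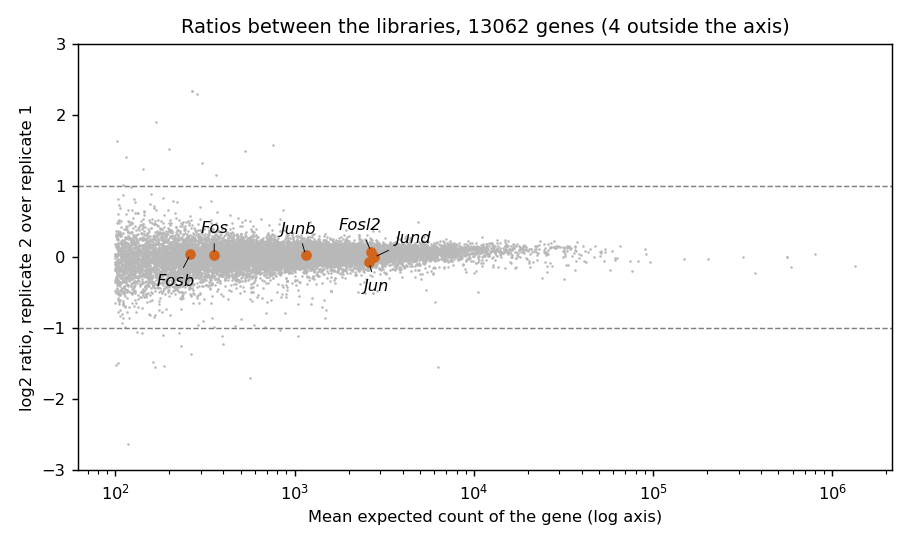
The log2 ratio of replicate 2 over replicate 1 after TMM scaling against the mean expected count on a log axis, for 13062 genes (grey) and 6 members (orange). Dashed lines mark 2-fold. The 6 members lie between -0.07 and 0.07, inside the grey cloud.

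Fosb differed between the libraries in TPM more than in counts. Its TPM was 1.41 times as high in replicate 2 as in replicate 1, and 1.53 times in the kallisto-layout table, whereas its scaled counts gave a log2 ratio of 0.04. The effective length by which its reads were divided, an average over its transcripts, was 3651 bases in replicate 1 and 2675 in replicate 2, a 1.36-fold difference. Of the 13062 genes, 5.06% had effective lengths that differed at least 1.2-fold, and Fosb was the only one of the 6 tested members among them. For Fos the effective length differed 1.06-fold, and for the single-exon transcripts of Jun, Junb and Jund it was the same in both libraries. TPM divides the count by this length, so the difference of Fosb in TPM lay in the length and hence in how its reads were assigned to transcripts.

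Fosb has 7 annotated transcripts. Fosb-201, the full-length form, took 77.7% of Fosb TPM in replicate 1 and 38.6% in replicate 2, at 2.61 and 1.83 TPM. In replicate 1 the deposited interval of its TPM, 0.703 to 2.58, ended below that value. Its share depended on the estimate. Posterior means gave Fosb-201 only 44.3% and 21.7% in replicates 1 and 2, and the kallisto-layout table gave it 88.0% and 48.7%. Fosb-206, the delta-FosB form, was listed at 0 in replicate 1 and at 1.67 TPM on 37.0 counts in replicate 2, or 35.2% of Fosb TPM. Its deposited intervals overlapped, reaching 1.23 TPM in replicate 1 and running from 1.02 to 2.90 TPM in replicate 2. Its posterior mean count was 9.91 with a posterior SD of 6.66 in replicate 1 and 43.7 with an SD of 8.83 in replicate 2. The annotated Fosb-206 is short, 1090 bases against 3782 for Fosb-201, and lacks most of the long 3′ end, so 1 read weighs more in its TPM.

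The other Fosb transcripts were less certain. Fosb-207, with the same splice but without exon 3, was listed at 0 and 18.6% of Fosb TPM, and Fosb-205, with a shortened exon 2, at 12.2% and 0. The exon 3-skipping Fosb-202 and Fosb-203 were listed at 0 in both. Fosb-204, a retained-intron RNA that codes for no protein, was listed at 10.1% and 7.59%. The annotation holds no transcript with the splice, exon 3 and the full 3′ end together, so no single listed transcript would match such an RNA along its whole length.

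Summed over the 5 transcripts with a shortened coding sequence, the share of Fosb TPM was 12.2% in replicate 1 and 53.8% in replicate 2, a mean of 33.0% ± 29.4 (n = 2). Over the 2 transcripts with the 140-base splice alone it was listed at 0 and at 53.8%. In the kallisto-layout table, Fosb-206 took 0.000186% and 39.9% and Fosb-207 took 0 and 3.17%. Posterior means gave the pair 18.8% and 52.0%, with Fosb-206 at 14.3% and 39.5%. All 3 estimates thus placed more of Fosb on the pair in replicate 2, but the estimate for replicate 1 ranged from 0 to 18.8%. A share over both libraries is not well determined by these data.

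**Figure D3:**
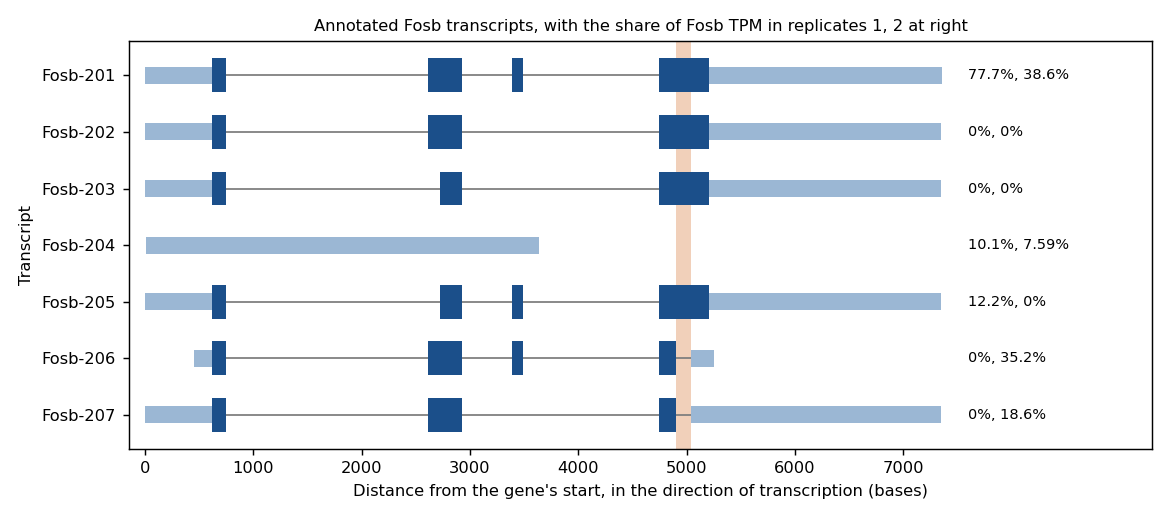
The 7 annotated Fosb transcripts by distance in bases from the gene's start, drawn in the direction of transcription. Thick dark boxes are coding, light boxes are other exonic sequence, the orange band is the 140-base excised part of exon 4, and the percentages are shares of Fosb TPM in replicates 1 and 2. Fosb-206 and Fosb-207 lack the band, and Fosb-202, Fosb-203 and Fosb-207 lack exon 3.

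Fos was led by its coding transcript Fos-201, with 74.9% of Fos TPM in replicate 1 and 70.3% in replicate 2, and 89.5% and 89.2% of its counts. The 3 noncoding transcripts, which start in the first intron and end within exon 4, together took 25.1% and 29.7%, a mean of 27.4% ± 3.29. Which of them held the reads was unstable. Fos-202 was listed at 0 and 21.7% and Fos-203 at 21.9% and 8.06%. Fos-204 took 3.21% and 0 in this table but 20.2% and 38.1% in the kallisto-layout table, where Fos-202 was listed at 0 in both. In that table Fos-201 took 63.8% and 51.4%.

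Fosl2 was steadier. Its coding transcript Fosl2-201 took 78.4% and 84.2% of its TPM, and its 2 retained-intron RNAs took the rest. Of these, Fosl2-203 took 14.8% and 11.1% and the other took 6.75% and 4.65%. In the kallisto-layout table Fosl2-201 took 68.4% and 73.7% and Fosl2-203 25.0% and 20.9%. Jun and Jund have 1 transcript each, and Junb-201 took all reads of Junb, with the noncoding Junb-202 listed at 0 in both libraries. The transcripts of Fosl1 shared 3 and 4 counts and are not described.

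The largest change of 1 transcript's share between libraries was 39.0 percentage points for Fosb and 21.7 for Fos. Among 2628 genes with several transcripts and 200 to 500 counts, 19.3% had a change of at least 20 points, and the median was 10.8. Among the 850 of these with at least 7 transcripts, as many as Fosb has, the share was 25.3%. A change at least as large as that of Fosb was found in 27 of these 850 genes, 3.18%, and Fosb is counted among them. For Fosl2 the largest change was 5.78 points, where 4.79% of 7563 genes with over 500 counts reached 20 points and the median was 5.96.

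**Figure D4:**
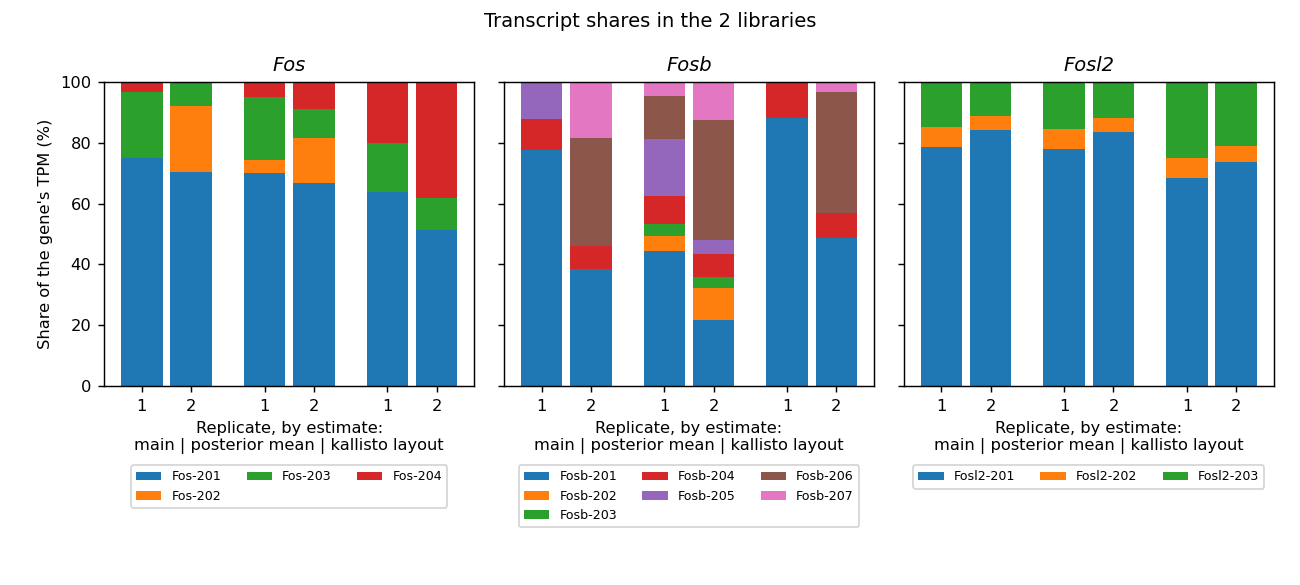
Stacked bars give each transcript's share of the TPM of Fos, Fosb and Fosl2 in replicates 1 and 2, by 3 estimates, namely the main TPM, the posterior mean and the kallisto-layout TPM. Fosb-206 fills 35.2% of the main estimate in replicate 2 and is listed at 0 in replicate 1, while the shares of Fosl2 differ little between libraries.

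Genes that work with AP-1 were mostly expressed. Of 17 leucine zipper partners and competitors, 14 passed a TPM of 1 in each library. Among all 22015 nuclear protein-coding genes 60.2% did so, the share to set beside the count of each list below. The median of the 17 was 13.0 ± 0.212 TPM, against 4.28 and 4.16 TPM for the median of all nuclear protein-coding genes in the 2 libraries. Over the nuclear protein-coding genes that passed a TPM of 1 in each library, the median was higher, 15.25 and 15.33 TPM. The highest were Nfe2l1, a stress-responsive factor of the CNC family, at 107.8 ± 9.45 TPM, Atf2, a Jun partner, at 54.4 ± 2.35 TPM, Atf4, the effector of the integrated stress response, at 42.7 ± 0.417 TPM, and the small Maf protein gene Mafg at 32.7 ± 2.24 TPM. Batf, Batf2 and Batf3, partners of Jun in immune cells, stood at 0.41, 0.22 and 0.82 TPM in replicate 1 and at 0.52, 0.57 and 1.72 TPM in replicate 2. Creb5 had the largest ratio between replicates among partners with at least 100 counts, -0.46 on the log2 scale.

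All 15 transcription factors and coactivators listed upstream of the Fos and Jun genes, and all 13 kinases, passed a TPM of 1 in each library. The share over all nuclear protein-coding genes was 60.2%. The median of the transcription factors was 27.9 ± 1.71 TPM, and the highest were the activity-regulated Mef2d at 79.6 ± 7.48 TPM, Mef2c at 68.4 ± 3.49 TPM and Mef2a at 64.7 ± 0.955 TPM, and the CREB coactivator Crtc1 at 63.3 ± 5.91 TPM. Crem had the largest ratio, 0.29. The kinases had a median of 33.2 ± 0.00707 TPM. Mapk10, which encodes the neuronal JNK3, stood at 179.1 ± 13.0 TPM. Mapk3, which encodes ERK1, stood at 80.2 ± 1.71 TPM and the JNK-activating kinase gene Map2k4 at 78.3 ± 3.22 TPM.

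The 9 genes for the turnover of AP-1 RNA and protein were all detected, with a median of 23.0 ± 1.68 TPM. The ubiquitin ligase genes Fbxw7 and Cop1, whose products act on Jun, stood at 69.5 ± 1.23 and 52.2 ± 4.57 TPM. The genes of the AU-rich element binding proteins Khsrp and Elavl1 stood at 46.0 ± 0.495 and 31.2 ± 0.983 TPM. Zfp36, whose product speeds the decay of such RNAs and which is itself an immediate early gene, had the largest ratio, -0.42, at 4.80 and 3.48 TPM.

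Of 12 genes reported elsewhere as AP-1 targets, 10 were detected, with a median of 18.1 ± 1.06 TPM. Gfap, the astrocyte filament gene, led at 1148 ± 4.40 TPM, followed by the filament gene Vim at 83.2 ± 2.80 TPM, the secretogranin gene Scg2 at 74.9 ± 2.48 TPM and Cdk5 at 54.9 ± 3.13 TPM. Vim had the largest ratio of those with at least 100 counts, -0.17. The matrix protease gene Mmp9 stood at 0.69 and 0.92 TPM, and Mmp3 had 0 counts in both libraries. In none of the 5 lists did a gene with at least 100 counts lie past 2-fold between replicates. Only 0.268% of the 13062 genes past the count and TPM filters did so, so this does not set the lists apart. The lists have no control group to be compared with, so these are levels alone.

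**Figure D5:**
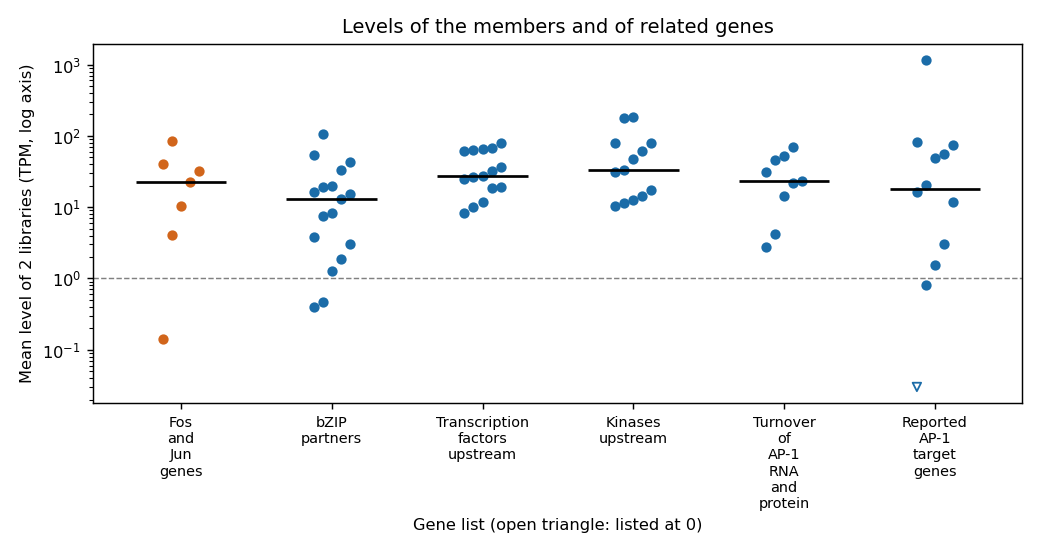
Mean TPM of both libraries on a log axis for each gene of the family (orange) and of 5 lists of related genes (blue), with the median as a bar. The dashed line marks a TPM of 1 and the open triangle is Mmp3, listed at 0. All 15 transcription factors and 13 kinases lie above the line.

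The nuclear protein-coding gene nearest to each member in both libraries, by the summed difference in log2(TPM + 1), was Acin1 for Jund (84.17 and 83.63 TPM), Chchd3 for Jun (40.9 and 38.86 TPM), Ccar2 for Junb (31.68 and 32.37 TPM) and Scnm1 for Fosl2 (22.47 and 22.62 TPM). For Fos it was Trit1 (9.95 and 10.72 TPM), for Fosb Wdr92 (3.32 and 4.71 TPM), and for Fosl1 Hspa1l, tied with 1 other gene (0.18 and 0.10 TPM). This likeness is in level over 2 libraries only.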

How the data were processed

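The members and gene lists were chosen with earlier results of these data known. Per the file headers and readme, the authors made the values of each library on its own, with GENCODE M21 on mm10. They deposited expected counts, TPM, posterior means and intervals per gene and transcript, in the column layout of RSEM, and a second transcript table in kallisto's layout with estimated counts and TPM. Not given in the sources used here are the aligner, the counting programs and the strand setting, and the names RSEM and kallisto refer to layouts. CAST sequence was not used, and the effect of its differences from mm10 was not tested. Symbols, exons and coding lengths came from GENCODE M21, and all 7 symbols matched. Rows of 96 spike-ins and 26248 numeric identifiers with no gene name stayed out of library sizes.

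Levels are the mean and SD of the deposited TPM over 2 libraries, and a share is a transcript's percent of its gene's TPM. Detected means a TPM of 1 or more in each library. For ratios, expected counts were rounded and scaled by TMM in edgeR 4.0.16 (R 4.3.3), with a prior count of 2, a mean count of at least 100 and a mean TPM of at least 1. With 1 group no test was run. Ratio intervals are exact (Clopper-Pearson) 95% intervals of the split of a gene's reads between the libraries and cover counting error alone. The ratio code was tested on simulated counts. Kallisto-layout TPM were summed over the transcripts of a gene. Alternatives were the kallisto-layout table, posterior means, DESeq2 1.42.0 size factors, library size, spike-in scaling, other filters and prior counts, and 1 library left out. The genes named are all members with their transcripts, of each list the 4 highest by TPM, the largest ratio with at least 100 counts and every gene under a TPM of 1 in either library, and the gene nearest to each member. One gene that this rule names is not reported here. The splice-only class of Fosb, the posterior means of shares, the 1.2-fold mark for effective length and the 20-point mark for share changes were chosen after values were seen. Tables and figures used pandas 2.3.3, scipy 1.17.1, matplotlib 3.10.9 and numpy 2.4.6 under Python 3.11.15.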

Additional observations from a re-analysis of the deposited data

How the results depend on the processing

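The count of detected members (6) was the same in the kallisto-layout table, with posterior means, with TPM over nuclear protein-coding genes alone, at a TPM of 0.5 or 2 and without either library. The levels of all 7 members were higher with TPM over nuclear protein-coding genes alone. That of Fos went from 10.4 to 23.2 TPM and that of Jund from 83.7 to 187.2 TPM. The count past 2-fold (0) was the same under the 7 other scalings, filters and tables tried. The Fos share of the family's TPM, 19.2%, became 20.6% in the kallisto-layout table, 16.0% over protein-coding transcripts alone and 33.5% of expected counts, and ran from 18.6% to 19.8% with 1 library left out. The share of Fosb on transcripts with a short coding sequence, 33.0%, became 21.5% in the kallisto-layout table, 58.8% with posterior means and 26.9% over the spliced pair alone, and was 12.2% or 53.8% with 1 library left out. By library, posterior means gave 46.7% in replicate 1 and 70.9% in replicate 2, and the kallisto-layout table gave 0.000186% and 43.0%. The value thus rests both on which library and on which estimate is taken. Depth limits Fosl1, with 3 and 4 counts, and the minor transcripts of Fos and Fosb. No paired analysis was possible because the libraries form 1 group.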
